A study of Homo sapiens with 6 samples.

Results

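The ion channel genes of PC-3 cells were examined after treatment with S-adenosylmethionine (SAM), with NALCN, the sodium leak channel, as the first of them. They were taken by gene symbol, as the genes whose symbols follow the names of the potassium (KCN), sodium (SCN and SCNN1), calcium (CACN), chloride (CLCN), anoctamin (ANO), TRP and HCN channel families, with NALCN added. The set, and NALCN in it, were chosen with earlier results of these data known. The name pattern took 185 of the 57396 genes in the count table, or 184 symbols, because TRPV1 is listed under 2 overlapping identifiers. The names cover auxiliary subunits as well as pore-forming ones, and TRPC2 and CLCN3P1, whose symbols stand for human pseudogenes. PC-3 is an established line of prostate carcinoma cells. RNA was sequenced from 3 libraries of cells given 160 µM SAM and from 3 libraries of cells given the vehicle, labelled as PBS (Control), both over 5 days. SAM is the methyl donor of most cellular methylation reactions. All 6 libraries come from 1 cell line, and nothing in the labels says that the libraries of a group were separate cultures. The p-values therefore measure library-to-library spread that may be only technical.

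Ion channels are membrane proteins that let ions pass down their gradients. Potassium channels hold the resting potential negative, voltage-gated sodium and calcium channels open on depolarisation, and calcium entry couples the membrane to signalling inside the cell. NALCN passes a steady sodium leak that depolarises the membrane, and it works in a complex with the subunit FAM155A (also named NALF1) and the large proteins UNC79 and UNC80. Epithelial cells use ENaC for sodium uptake and anoctamins and CLCN proteins for chloride or lipid transport.

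The libraries held 28995160, 12020601 and 15467639 counts in SAM 1 to 3, against 9379258, 21768273 and 19985193 counts in Control 1 to 3. The ion channel genes took 0.104 to 0.114% of the counts in the SAM libraries and 0.131 to 0.134% in the Control libraries. The groups did not overlap in this share, and without ANO1, the most abundant member, it was 0.0877 to 0.0951% with SAM and 0.104 to 0.105% in Control. SAM 2 and Control 1 stood apart from the other libraries: the transcript CTD-2328D6.1 took 1.56% of the counts in SAM 2 and 1.18% in Control 1, against at most 0.0636% elsewhere. SAM 3 showed the steepest trend with transcript length among the 6 libraries, −0.11 on the log2 scale per doubling. The slope was −0.05 in SAM 1 and 0.03 in SAM 2, against 0.07, 0.01 and 0.05 in Control 1 to 3. SAM 3 also had the steepest trend with GC content, 0.12 per 10 points, against −0.06 to −0.001 in the others. The part of these differences in the results was not tested, and counts without SAM 2 and Control 1, or with the trends of length and GC content removed, are given beside them.

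A filter on low counts left 70 of the 185 genes for the test, and 115 were not tested. Levels are in CPM, which is the count scaled to library size, and a gene was called where the adjusted p of edgeR's quasi-likelihood test over all 15312 tested genes was under 0.05. With SAM, 9 ion channel genes fell, 4 rose and 57 did not pass. The 9 that fell make up 12.9% of the tested ion channel genes, against 5.24% of all tested genes, and the 4 that rose make up 5.71%, against 5.19%. In either direction 18.6% were called, against 10.4% of all tested genes. These shares are a description, since a list chosen by name carries no test of its own here. The counts called per family and per related list below stand beside the same 10.4% of all tested genes, and carry no test either. Leaving out SAM 2 and Control 1 together gave 1 higher and 6 lower ion channel genes, and scaling by library totals alone gave 1 higher and 9 lower. With the trends of length and GC content removed, 9 were higher and 12 lower.

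Over the 70 tested genes the median log2 fold change, SAM over Control, was −0.05, against −0.01 over all tested genes. The median size of the change was 0.35, against 0.22, while the median level of these genes was 6.24 CPM, against 22.7 CPM over all tested genes. The 3 SAM libraries lay wholly above the 3 Control libraries for 14 of them and wholly below for 18, together 45.7%, against 36.7% of all tested genes. Signs were divided almost evenly, with 34 positive and 36 negative. Of the 70 genes, 58 reached the 0.564 CPM of the filter in all 6 libraries, 5 in the 3 Control libraries but not in all SAM libraries, and 5 in the 3 SAM libraries but not in all Control libraries. Genes that pass through 1 group had to be high in it, so the counts and medians over the tested genes describe them only and do not stand for all 185. Of the called genes this concerns KCNQ1 and CACNG6, through Control, and KCNJ2, through SAM.

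**Figure D1:**
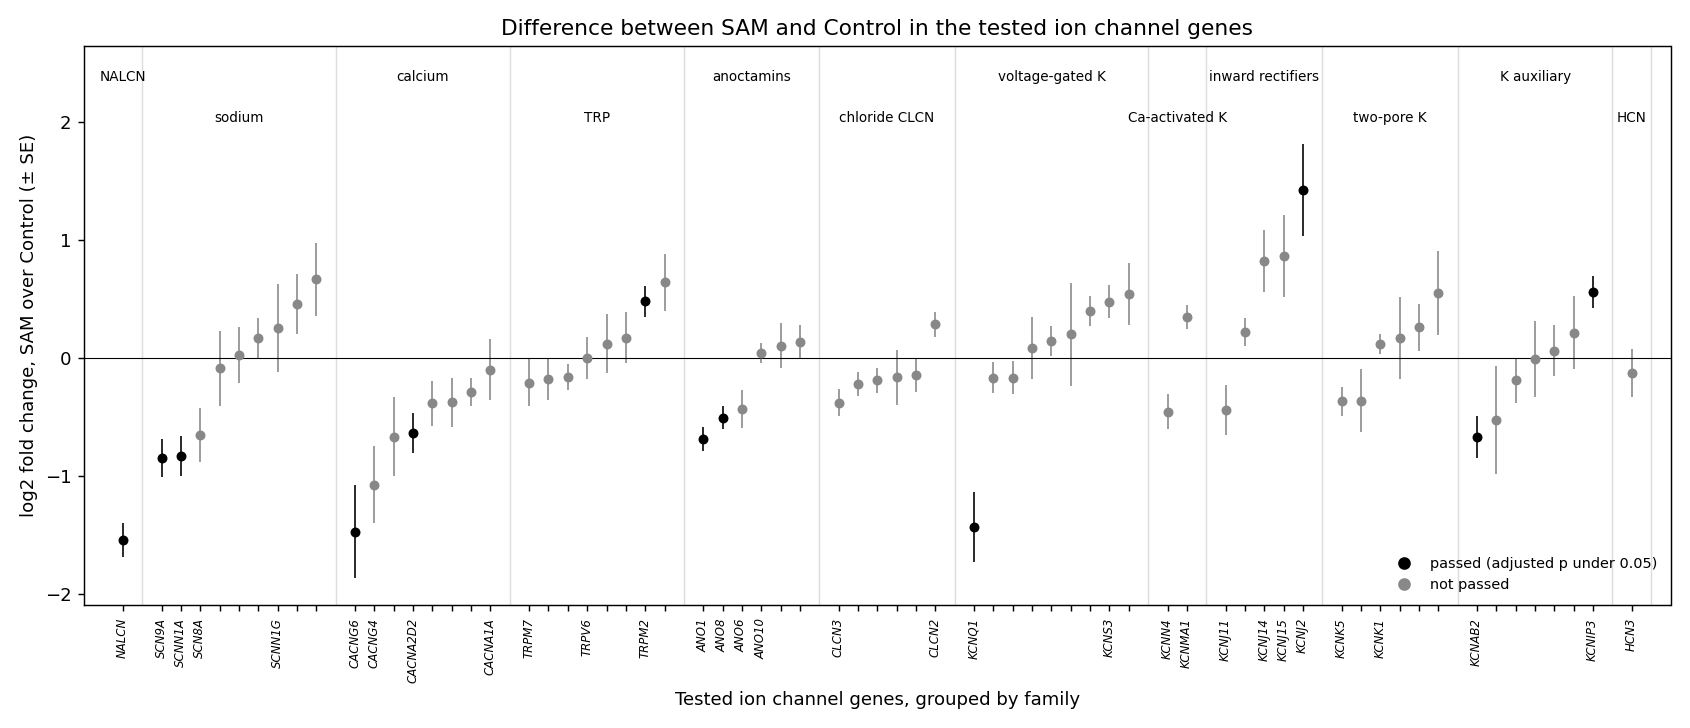
The vertical axis gives the log2 fold change of SAM over Control for 68 of the 70 tested ion channel genes, with bars of 1 SE, and the horizontal axis groups the genes by family. Genes described in the text are named; black points are 12 genes that passed the test and grey points those that did not; NALCN at −1.55 is the lowest point.

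NALCN, chosen to name the set with results of these data known, fell with SAM. It had the smallest p of the ion channel genes, and that rank is a description only. NALCN was at 3.27, 3.97 and 3.23 CPM in SAM 1 to 3, against 10.3, 10.2 and 9.89 CPM in Control 1 to 3. Every SAM library lay far below every Control library, and the 3 Control libraries were almost level. These values rest on 95, 47 and 49 counts with SAM and on 96, 224 and 202 counts in Control. The means were 3.49 ± 0.417 CPM with SAM and 10.1 ± 0.208 CPM in Control (SD, n = 3 each), 2.92-fold lower with SAM, with a log2 fold change of −1.55 (SE 0.15) and an edgeR adjusted p of 0.00114. NALCN was called under all 14 alternatives run, each leave-one-out fit included, with log2 fold changes of −1.63 to −1.42. The smallest change, −1.42, came with the trends of length and GC content removed. The gene (ENSG00000102452) lies at chr13:101053776-101416492 in GRCh38. An antisense transcript, NALCN-AS1, shares exonic sequence with it and averaged 0.113 CPM with SAM and 0.0315 CPM in Control, too low to be tested.

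Of the NALCN complex, FAM155A, the subunit that NALCN needs to reach the membrane in a working form, was the one further gene with enough counts to be tested, and it fell as well. FAM155A was at 1.58, 1.95 and 1.45 CPM with SAM, against 3.75, 2.997 and 2.99 CPM in Control. The groups did not overlap, and the highest SAM library was SAM 2. Its means were 1.66 ± 0.255 CPM with SAM and 3.25 ± 0.440 CPM in Control (SD, n = 3 each), with a log2 fold change of −0.96 (SE 0.20, edgeR adjusted p = 0.0212). The call was lost in the fits without SAM 1, Control 1, Control 2 or Control 3 (edgeR adjusted p 0.0765 to 0.0972) and without SAM 2 and Control 1 together (0.0520). The other complex members were near the floor of detection: UNC79 had 52 counts over all 6 libraries, at 0.422 CPM with SAM and 0.557 CPM in Control, UNC80 had 3 counts, and FAM155B, a relative of FAM155A, had none. A transcript at 0 in a library allows up to 0.103 to 0.322 CPM, the worth of 3 counts, for counting error only. In RNA of whole cultures, fewer cells that express a gene and less RNA per cell cannot be told apart.

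Because SAM donates methyl groups and CpG dinucleotides are the sites of DNA methylation, the 250 bases before the start of NALCN and of 3 other called genes are shown, as RefSeq gives them for GRCh38.p14. DNA methylation was not measured in these libraries. The capitals mark CpG dinucleotides, and each sequence is written along the strand of its gene. The windows are chr13:101416509-101416758 on the minus strand (NALCN), chr19:53991387-53991636 on the plus strand (CACNG6), chr3:50504245-50504494 on the minus strand (CACNA2D2) and chr2:95346408-95346657 on the plus strand (KCNIP3).
NALCN: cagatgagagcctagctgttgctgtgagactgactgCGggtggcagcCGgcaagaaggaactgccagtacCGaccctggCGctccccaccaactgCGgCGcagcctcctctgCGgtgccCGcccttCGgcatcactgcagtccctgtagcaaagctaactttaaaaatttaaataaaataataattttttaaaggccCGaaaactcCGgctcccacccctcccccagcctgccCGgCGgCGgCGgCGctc
CACNG6: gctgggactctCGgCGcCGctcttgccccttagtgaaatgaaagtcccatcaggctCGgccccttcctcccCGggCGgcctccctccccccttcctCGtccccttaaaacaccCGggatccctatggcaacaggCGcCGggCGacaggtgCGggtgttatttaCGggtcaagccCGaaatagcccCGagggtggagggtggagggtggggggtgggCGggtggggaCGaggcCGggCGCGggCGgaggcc
CACNA2D2: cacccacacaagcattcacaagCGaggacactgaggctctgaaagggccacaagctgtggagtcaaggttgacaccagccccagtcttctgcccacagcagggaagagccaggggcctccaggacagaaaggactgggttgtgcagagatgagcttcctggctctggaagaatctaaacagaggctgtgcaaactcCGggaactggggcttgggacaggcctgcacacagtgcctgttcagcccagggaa
KCNIP3: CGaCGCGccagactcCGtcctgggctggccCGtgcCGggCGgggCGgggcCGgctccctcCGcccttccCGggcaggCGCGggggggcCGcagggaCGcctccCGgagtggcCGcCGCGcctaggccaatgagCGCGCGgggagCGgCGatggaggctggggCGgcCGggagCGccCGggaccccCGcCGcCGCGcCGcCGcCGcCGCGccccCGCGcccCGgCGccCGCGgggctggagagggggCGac

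The window of NALCN held 16 CpG dinucleotides, that of CACNG6 held 21 and that of KCNIP3, which rose, held 44. CACNA2D2 fell as NALCN did, and its window held 2. A relation between the CpG count and the changes was not tested. RefSeq windows were matched for 9 of the 13 called genes, with a median of 22 CpG, and for 47 of the 70 tested ones, with a median of 17, against a median of 11 over all 27305 RefSeq promoters. The 6 matched genes that fell had a median of 21.5 CpG and the 3 that rose had a median of 32. The letters GGGCGG, the GC box bound by factors of the Sp family, were found on either strand in the windows of NALCN, CACNG6 and KCNIP3 and not in that of CACNA2D2. They were in 66.7% of the 9 windows of called genes and 80.9% of the 47 windows of tested genes, against 42.3% of all promoters, and each match holds a CpG that is also counted above. The letters TATAAA and CACGTG, searched on both strands, were in none of the 9 windows of called genes. Of the 47 windows of tested genes 6.38% held TATAAA, against 11.1% of all promoters, and 12.8% held CACGTG, against 6.49%. A match is only a description of the letters. The RefSeq start of KCNIP3 lies 49354 bases inside the gene as the count table bounds it, so the window belongs to 1 of its transcripts. Other windows counted above also lie away from the start in the count table. The distance was 92395 bases for ANO1, 3458 for TRPM2 and 1210 for KCNAB2 among the called genes. Among the genes not called it was 76703 bases for ANO6, 115474 for KCNJ15 and 117511 for CACNA1A.

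**Figure D2:**
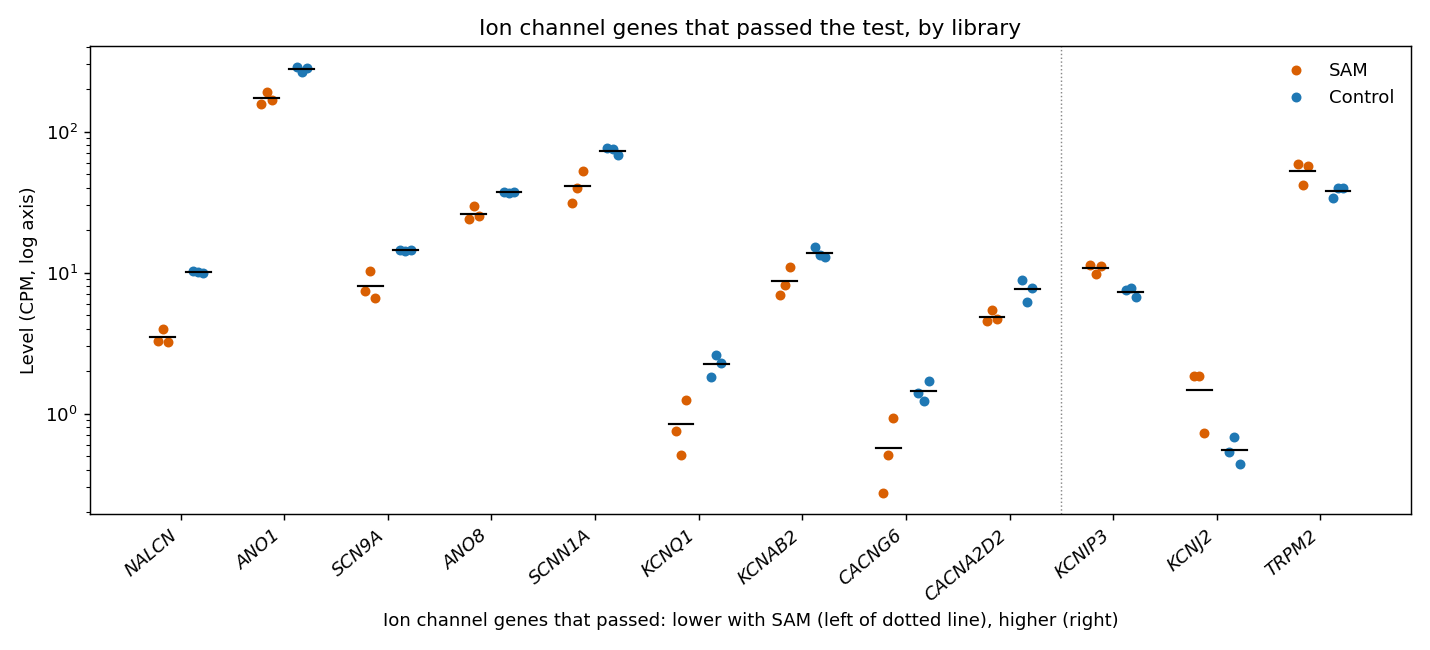
Each point is the level of 1 library in CPM on a log axis, with SAM left and Control right for each of 12 ion channel genes that passed, and the bar is the mean of 3 libraries. In all 12 the groups do not overlap; the nearest libraries on this axis are those of TRPM2, at 42.1 CPM in SAM 2 and 40.05 CPM in Control 2.

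Among the sodium channel genes, 10 of 18 were tested, and SCN9A and SCNN1A fell while the other 8 did not pass. SCN9A encodes the voltage-gated sodium channel alpha subunit best known from pain-sensing neurons. Its levels were 7.44, 10.2 and 6.60 CPM with SAM, against 14.4, 14.3 and 14.5 CPM in Control, so every SAM library was lower and the Control libraries were level. The means were 8.09 ± 1.90 CPM with SAM and 14.4 ± 0.123 CPM in Control (SD, n = 3 each), a log2 fold change of −0.85 (SE 0.16, edgeR adjusted p = 0.0148). With the trends of length and GC content removed the log2 fold change of SCN9A was −0.67 (edgeR adjusted p = 0.00726). SCNN1A encodes the alpha subunit of the epithelial sodium channel ENaC. It stood at 31.0, 39.9 and 52.9 CPM with SAM, against 75.9, 74.8 and 68.6 CPM in Control. SAM 3 was the nearest to Control and still below it. The means of SCNN1A were 41.3 ± 11.02 CPM with SAM and 73.1 ± 3.96 CPM in Control (SD, n = 3 each), with a log2 fold change of −0.83 (SE 0.17, edgeR adjusted p = 0.0173). Both calls were lost without SAM 1 or without any single Control library, at edgeR adjusted p of 0.0632 to 0.0833 for SCN9A and 0.0629 to 0.0746 for SCNN1A, and that of SCNN1A also without SAM 2 and Control 1 together (0.0626). SCNN1A shares exonic sequence with LTBR on the opposite strand, which averaged 158 CPM with SAM and 144 CPM in Control (edgeR adjusted p = 0.338), and the sources used here do not say whether strand was used in counting. SCN9A overlaps the antisense transcript SCN1A-AS1, which was not analysed here.

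The 8 sodium channel genes that did not pass had log2 fold changes of both signs. SCN8A, another alpha subunit of neurons, was at 17.9, 25.6 and 11.03 CPM with SAM, against 28.5, 27.6 and 29.04 CPM in Control (edgeR adjusted p = 0.0924). The groups did not overlap, but SAM 2 lay close to Control and SAM 3 far below. SCN8A was called in DESeq2 (adjusted p = 0.0339), without the filter on low counts (edgeR adjusted p = 4.9e-05), without SAM 2 (0.00847), without SAM 2 and Control 1 together (0.0313) and with the replicate number as a block (0.0452). The gamma subunit gene of ENaC, SCNN1G, had a log2 fold change of 0.26 (SE 0.37, edgeR adjusted p = 0.671).

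Of the 26 calcium channel genes 8 were tested, and CACNA2D2 and CACNG6 fell while 6 did not pass. All 8 had a negative log2 fold change, with a median of −0.51, and 4 had an unadjusted p under 0.05 in edgeR. With the trends of length and GC content removed 7 of the 8 were negative. CACNG6, CACNG4 and CACNG8 passed the filter on low counts through the Control libraries, so a lower level with SAM was partly a condition of their being tested. CACNA2D2 encodes an auxiliary subunit that carries the pore to the cell surface. It was at 4.51, 5.41 and 4.69 CPM with SAM, against 8.80, 6.22 and 7.79 CPM in Control, where Control 2 was the nearest to SAM. Its means were 4.87 ± 0.477 CPM with SAM and 7.60 ± 1.30 CPM in Control (SD, n = 3 each), a log2 fold change of −0.63 (SE 0.17, edgeR adjusted p = 0.0442). CACNG6 encodes a gamma subunit and is a low gene, with 8, 6 and 14 counts with SAM, against 13, 27 and 35 counts in Control. Its levels were 0.276, 0.507 and 0.924 CPM with SAM, against 1.39, 1.23 and 1.71 CPM in Control. The groups did not overlap, and SAM 1, the deepest library, was the lowest. CACNG6 averaged 0.569 ± 0.329 CPM with SAM and 1.44 ± 0.248 CPM in Control (SD, n = 3 each), with a log2 fold change of −1.47 (SE 0.39, edgeR adjusted p = 0.0436). Its fold change ran between −2.02 and −0.98 over the 14 alternatives, and in DESeq2 it was not called (adjusted p = 0.0583). Both calls were lost without SAM 1 or any single Control library, at edgeR adjusted p of 0.0637 to 0.176 for CACNA2D2 and 0.103 to 0.202 for CACNG6, and without SAM 2 and Control 1 together (0.0979 for CACNA2D2 and 0.0932 for CACNG6).

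CACNG4, a gamma subunit that also partners AMPA receptors in neurons, had the one change of at least 1 on the log2 scale that did not pass. It was at 0.586, 0.338 and 0.528 CPM with SAM, against 1.07, 0.817 and 1.37 CPM in Control, with no overlap. The log2 fold change of CACNG4 was −1.08 (SE 0.33, edgeR adjusted p = 0.0636), and it passed with the trends of length and GC content removed (0.0488). The pore-forming CACNA1A, the alpha subunit of P/Q-type channels, had a log2 fold change of −0.10 (SE 0.26, edgeR adjusted p = 0.933).

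Chloride channels and anoctamins included the most abundant ion channel gene. ANO1, the calcium-activated chloride channel, fell to 157, 192 and 166 CPM with SAM, against 286, 263 and 281 CPM in Control. The SAM libraries lay well below all Control libraries. ANO1 averaged 172 ± 18.2 CPM with SAM and 277 ± 11.9 CPM in Control (SD, n = 3 each), with a log2 fold change of −0.69 (SE 0.10, edgeR adjusted p = 0.00646). It took 14.6 to 16.6% of all ion channel counts in SAM libraries and 20.4 to 21.4% in Control libraries. The call of ANO1 was lost only without Control 3 (edgeR adjusted p = 0.0591) among the 14 alternatives.

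ANO8 belongs to the same family and is known as a tether between the endoplasmic reticulum and the plasma membrane. It was at 24.1, 29.4 and 25.1 CPM with SAM, against 37.3, 36.6 and 37.2 CPM in Control, with no overlap and level Control libraries. ANO8 averaged 26.2 ± 2.83 CPM with SAM and 37.0 ± 0.357 CPM in Control (SD, n = 3 each), with a log2 fold change of −0.50 (SE 0.10, edgeR adjusted p = 0.0166). The call was lost without SAM 1 or any single Control library (edgeR adjusted p 0.0730 to 0.101). DDA1 overlaps ANO8 on the opposite strand and averaged 60.9 CPM with SAM and 57.8 CPM in Control (edgeR adjusted p = 0.633). The lipid scramblase ANO6 had a log2 fold change of −0.43 (SE 0.16, edgeR adjusted p = 0.105), with 64.7, 74.9 and 45.2 CPM with SAM, against 85.5, 80.5 and 83.2 CPM in Control, and was called without SAM 2 (edgeR adjusted p = 0.0218) and without the filter on low counts (0.00905). Together 2 of the 6 tested anoctamins fell and 4 did not pass, ANO10 among them with a log2 fold change of 0.04.

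Of the 6 tested CLCN genes none passed in edgeR or in limma voom, 2 had an unadjusted p under 0.05 in edgeR, and 1, CLCN3, was called in DESeq2 (adjusted p = 0.0383). CLCN3, a chloride and proton exchanger of endosomes, was at 63.4, 68.4 and 51.6 CPM with SAM, against 84.4, 78.1 and 75.8 CPM in Control (edgeR adjusted p = 0.0656). The groups of CLCN3 did not overlap, its log2 fold change was −0.38 (SE 0.12), and it was called without SAM 2 (edgeR adjusted p = 0.0245), without the filter on low counts (0.0302) and with the trends of length and GC content removed (0.0454). CLCN2, a chloride channel of the plasma membrane, had the opposite sign, with a log2 fold change of 0.29 (SE 0.10, edgeR adjusted p = 0.1004), and was called with those trends removed (0.0449).

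Potassium channel genes moved both ways. Of the 40 voltage-gated alpha subunit genes 10 were tested, and KCNQ1 fell, 1 gene rose and 8 did not pass. KCNQ1 encodes the channel of the slow delayed rectifier current of the heart, which also serves potassium recycling in epithelia. It was at 0.758, 0.507 and 1.25 CPM with SAM, against 1.82, 2.59 and 2.30 CPM in Control, on 22, 6 and 19 counts with SAM and 17, 57 and 47 counts in Control. The groups did not overlap, with SAM 3 the nearest to Control. KCNQ1 averaged 0.840 ± 0.380 CPM with SAM and 2.24 ± 0.386 CPM in Control (SD, n = 3 each), with a log2 fold change of −1.44 (SE 0.30, edgeR adjusted p = 0.0191). The call was lost without SAM 1 or any single Control library (edgeR adjusted p 0.0533 to 0.108). KCNQ1OT1, the imprinted antisense transcript within KCNQ1, averaged 2.84 CPM with SAM and 2.79 CPM in Control (edgeR adjusted p = 0.966). The count table cannot separate the reads of the pair without knowledge of the strand setting.

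KCNS3, a silent modifier subunit, had a log2 fold change of 0.48 (SE 0.14, edgeR adjusted p = 0.0596) and was called without SAM 2 (0.0324), without SAM 3 (0.0333) and with the trends of length and GC content removed (0.0350).

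The inward rectifiers, which help to set the resting potential, had 5 tested genes of 15, and KCNJ2 rose while 4 did not pass. KCNJ2 and KCNJ15 passed the filter on low counts through the SAM libraries, where they were higher. KCNJ2 encodes the classical strong inward rectifier of muscle and heart. It was at 1.86, 1.86 and 0.726 CPM with SAM, against 0.536, 0.681 and 0.441 CPM in Control, on 54, 22 and 11 counts with SAM and 5, 15 and 9 counts in Control. SAM 3 lay just above the highest Control library. The overlapping antisense transcript KCNJ2-AS1 averaged 0.378 CPM with SAM and 0.410 CPM in Control and was not tested. KCNJ2 averaged 1.48 ± 0.655 CPM with SAM and 0.553 ± 0.121 CPM in Control (SD, n = 3 each), with a log2 fold change of 1.43 (SE 0.39, edgeR adjusted p = 0.0472). Its call was lost in each fit without 1 library other than SAM 3 (edgeR adjusted p 0.0555 to 0.209), without SAM 2 and Control 1 together (0.113), with library totals only (0.0510), in DESeq2 (0.0536) and in limma voom (0.0688). KCNJ14 and KCNJ15 had log2 fold changes of 0.82 (SE 0.26, edgeR adjusted p = 0.0740) and 0.87 (SE 0.35, edgeR adjusted p = 0.129), while KCNJ11, the pore of ATP-sensitive potassium channels, had −0.44 (SE 0.21, edgeR adjusted p = 0.193). KCNJ14 was called without SAM 2 (edgeR adjusted p = 0.0320) and with the trends of length and GC content removed (0.0479), and KCNJ11 without SAM 3 (0.0248).

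Of the 16 auxiliary subunits of potassium channels 7 were tested, and KCNIP3 rose, KCNAB2 fell and 5 did not pass. KCNIP3 encodes a calcium-binding partner of A-type channels that is also known as the transcriptional repressor DREAM. Its levels were 11.2, 9.73 and 11.2 CPM with SAM, against 7.51, 7.76 and 6.66 CPM in Control, with no overlap. KCNIP3 averaged 10.7 ± 0.848 CPM with SAM and 7.31 ± 0.579 CPM in Control (SD, n = 3 each), with a log2 fold change of 0.56 (SE 0.13, edgeR adjusted p = 0.0308). KCNAB2 encodes a cytoplasmic beta subunit of Shaker-type channels. It was at 6.89, 8.20 and 10.96 CPM with SAM, against 15.1, 13.3 and 12.9 CPM in Control, so SAM 3 was the nearest to Control without reaching it. KCNAB2 averaged 8.68 ± 2.08 CPM with SAM and 13.8 ± 1.19 CPM in Control (SD, n = 3 each), with a log2 fold change of −0.67 (SE 0.18, edgeR adjusted p = 0.0405). Both lost their calls without SAM 1 or any single Control library, at edgeR adjusted p of 0.0860 to 0.160 for KCNIP3 and 0.109 to 0.137 for KCNAB2, and without SAM 2 and Control 1 together (0.0564 for KCNIP3 and 0.132 for KCNAB2). NPHP4 overlaps KCNAB2 on the opposite strand and averaged 39.0 CPM with SAM and 42.4 CPM in Control (edgeR adjusted p = 0.400).

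The calcium-activated potassium channel genes tested were KCNMA1, the large-conductance BK channel, and KCNN4, the intermediate-conductance channel. Neither passed in edgeR, DESeq2 or limma voom, and both had an unadjusted p under 0.05 in edgeR. KCNMA1 was at 35.1, 41.1 and 34.9 CPM with SAM, against 30.8, 27.6 and 29.1 CPM in Control, with a log2 fold change of 0.35 (SE 0.10, edgeR adjusted p = 0.0532). KCNN4 was at 21.1, 19.7 and 30.2 CPM with SAM, against 31.5, 34.6 and 30.9 CPM in Control, with a log2 fold change of −0.45 (SE 0.15, edgeR adjusted p = 0.0814). SAM 3 was close to Control for KCNN4. Without SAM 3 both were called (edgeR adjusted p = 0.00293 for KCNN4 and 0.0233 for KCNMA1), as they were without the filter on low counts (0.00686 for KCNN4 and 0.0322 for KCNMA1) and with the trends of length and GC content removed (0.00617 for KCNN4 and 0.00245 for KCNMA1). The 6 tested tandem-pore (KCNK) genes gave no call in edgeR, DESeq2 or limma voom, with 1 unadjusted p under 0.05 in edgeR, that of KCNK5. The HCN family, the pacemaker channels, had 1 tested gene, HCN3, at a log2 fold change of −0.12 (SE 0.20, edgeR adjusted p = 0.705).

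Of the 22 TRP channel genes 8 were tested, and TRPM2 rose while 7 did not pass. TRPM2 is a calcium-permeable cation channel opened by ADP-ribose under oxidative stress. It was at 59.3, 42.1 and 57.1 CPM with SAM, against 33.7, 40.05 and 39.9 CPM in Control, and SAM 2 lay barely above the highest Control library. TRPM2 averaged 52.8 ± 9.36 CPM with SAM and 37.9 ± 3.62 CPM in Control (SD, n = 3 each), with a log2 fold change of 0.48 (SE 0.13, edgeR adjusted p = 0.0497). The call was lost in each fit without 1 library other than SAM 2 (edgeR adjusted p 0.0601 to 0.201), with library totals only (0.0663) and in limma voom (adjusted p = 0.0584). TRPM7, a magnesium- and calcium-permeable channel with a kinase domain, was at 97.2, 100.1 and 54.2 CPM with SAM, against 104, 90.8 and 96.4 CPM in Control. Only SAM 3 was low, and TRPM7 did not pass (log2 fold change −0.21, SE 0.20, edgeR adjusted p = 0.495). TRPV6, the epithelial calcium channel, had a log2 fold change of 0.00 (SE 0.18, edgeR adjusted p = 0.996). TRPM8, the cold receptor known from androgen-regulated expression in prostate epithelium, had 50 counts in all, at 0.517, 0.677 and 0.660 CPM with SAM, against 0.536, 0.363 and 0.196 CPM in Control, and was not tested.

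**Figure D3:**
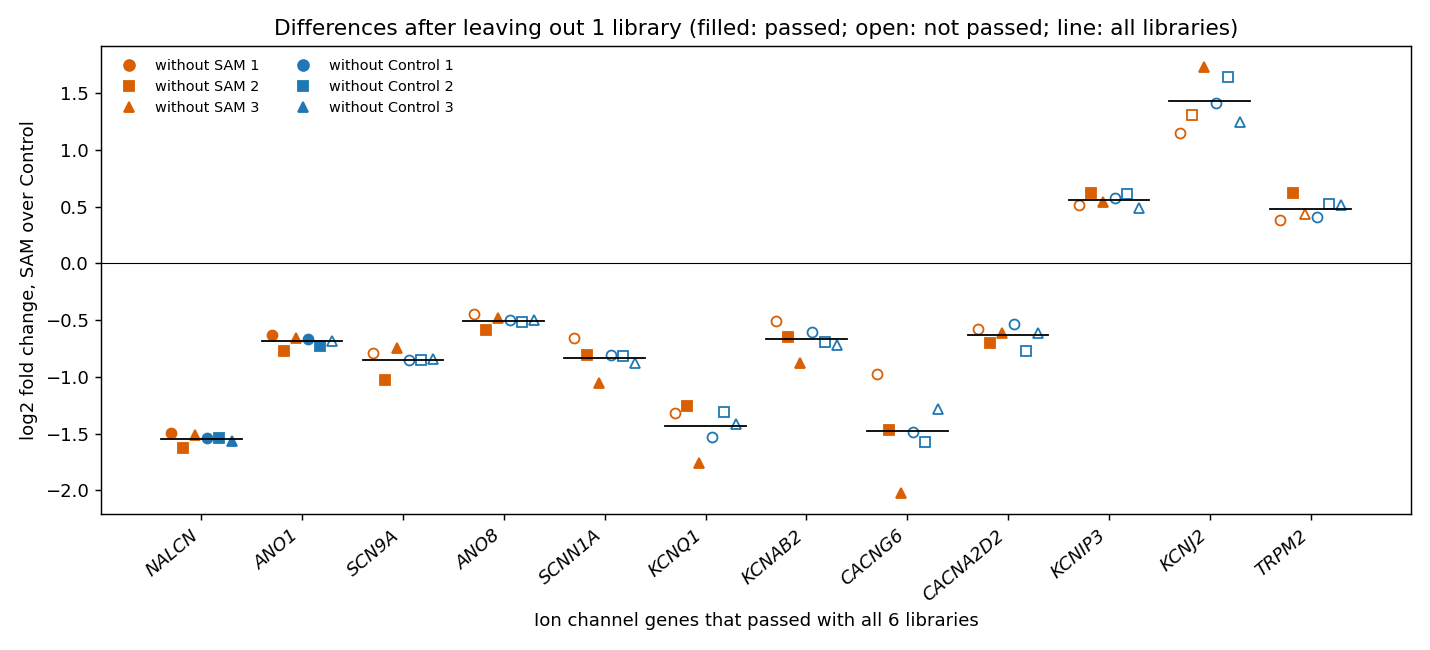
The vertical axis gives the log2 fold change of SAM over Control for 12 ion channel genes that passed, in 6 fits that each leave out 1 library; filled symbols passed, open symbols did not, and the line is the value with all libraries. NALCN stays filled in all 6 fits at −1.63 to −1.50 and ANO1 in 5. No gene changes sign, which groups without overlap leave little room for.

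Leaving out SAM 1 or any single Control library removed most of the 13 calls. Leaving out any library turned no direction among them, which groups without overlap leave little room for. Without SAM 1, Control 1 or Control 2 the called ion channel genes were ANO1 and NALCN, and without Control 3 NALCN alone. Without SAM 2, 5 were higher and 12 lower, and without SAM 3, 5 were higher and 13 lower. Over all tested genes the same fits gave 61 higher and 78 lower genes without Control 3, 107 and 108 without SAM 1, 114 and 141 without Control 1, 108 and 114 without Control 2, 1661 and 1572 without SAM 2, and 1253 and 1246 without SAM 3.

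Levels of different genes were compared per kilobase of exonic length. ANO1 was the highest, at 27.4 CPM per kilobase with SAM and 44.1 CPM per kilobase in Control, and its lowest library (25.02) was above the highest library of every other ion channel gene. KCNK1, a tandem-pore potassium channel, followed with 12.3 CPM per kilobase with SAM and 11.3 CPM per kilobase in Control, with no call (edgeR adjusted p = 0.374). Next came SCNN1A with 7.02 CPM per kilobase with SAM and 12.4 CPM per kilobase in Control, and then CLCN3, KCNN4 and ANO10. The library ranges of SCNN1A, CLCN3, KCNN4 and ANO10 overlap, so their order is not separated by these libraries. In Control the mean of SCNN1A was above that of KCNK1, and with SAM it was below. The exonic lengths come from GENCODE release 44 and take every annotated exon, which lowers the value of genes with long or rare exons.

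**Figure D4:**
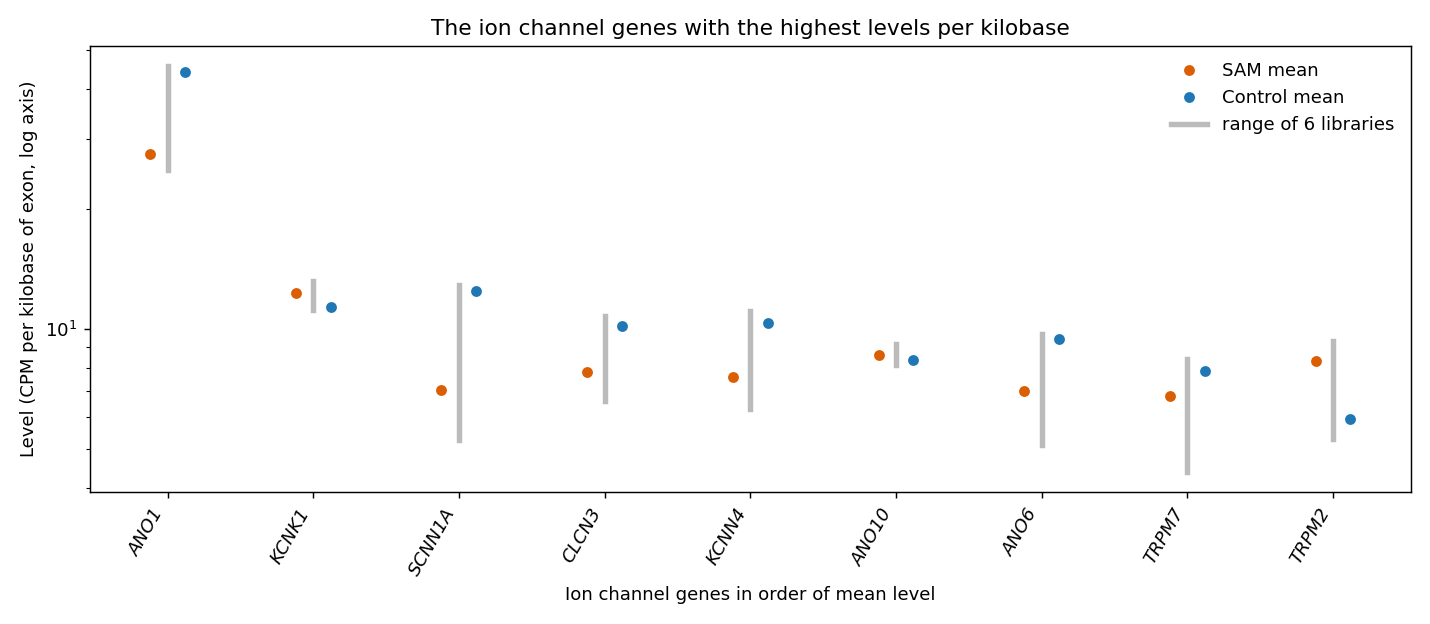
Mean levels in CPM per kilobase of exon, on a log axis, of the 9 ion channel genes with the highest levels, with SAM means left, Control means right and grey bars for the range of all 6 libraries. ANO1 stands above all others, at 27.4 with SAM and 44.1 in Control.

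The genes that were not tested were low throughout. Of the 115, 27 had no count in any library, 51 had 1 to 9 counts over all 6 libraries, 37 had 10 to 99, and the highest, KCNAB1, had 69. The 27 include the neuronal and lymphocyte channels KCNA1, KCNA2 and KCNA3, the pain-fibre channel SCN10A and the muscle anoctamin ANO5. A change of the genes with no count was not detectable at this depth. In edgeR without the filter on low counts 2 of the 115 were called, HCN2 and CLCN1, named here after their values were seen. The pacemaker channel gene HCN2 had 16, 2 and 7 counts with SAM, against 1, 1 and 2 counts in Control. CLCN1, the chloride channel of skeletal muscle, had 1 count in each SAM library, against 3, 5 and 8 counts in Control.

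The labelled cell type was checked by markers. The epithelial genes KRT8, KRT18, KRT19, EPCAM and CDH1 were all tested and summed to 2851 to 3595 CPM with SAM and 3331 to 3474 CPM in Control. CDH1, which encodes E-cadherin, fell among them, at 267 CPM with SAM and 365 CPM in Control (edgeR adjusted p = 0.0298), and its part in the results was not tested. Of the prostate luminal and androgen-regulated markers KLK3 and KLK2 had no count, while TMPRSS2 fell (3.29 CPM with SAM and 5.13 CPM in Control). Since several of the ion channel genes are best known from neurons, neuron and neuroendocrine markers were read beside them: STMN2 had 1 count, CHGA 2 and INSM1 none. The neuroendocrine list, led by the enolase gene ENO2, summed to 24.9 to 37.6 CPM with SAM and 30.9 to 36.7 CPM in Control. SYT1 was the one neuronal marker tested, and it fell, at 2.52 CPM with SAM and 4.68 CPM in Control. The untested SNAP25 lay the other way, at 0.546 CPM with SAM and 0.229 CPM in Control without overlap (42 counts in all), and RBFOX3 was at 0.328 CPM with SAM and 0.166 CPM in Control (28 counts in all). The list of 5 neuronal markers, of which 4 were found, summed to 2.51 to 4.06 CPM with SAM and 4.83 to 5.39 CPM in Control, most of it from SYT1, and its part in the results was not tested. Muscle markers summed to 2.17 to 2.84 CPM with SAM and 1.96 to 2.57 CPM in Control. The fibroblast markers DCN and LUM had no count. That list summed to 17.1 to 17.5 CPM with SAM and 17.6 to 19.1 CPM in Control, most of it from a single collagen gene. Immune markers summed to 1.45 to 1.78 CPM with SAM and 0.751 to 1.23 CPM in Control. Of these CD68, a lysosomal protein of macrophages, rose (1.21 CPM with SAM and 0.438 CPM in Control, edgeR adjusted p = 0.0439), while the leukocyte marker PTPRC, not tested, was at 0.282 CPM with SAM and 0.400 CPM in Control.

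A further list took ion channel genes outside the name pattern and also calcium sensors of the STIM family, and 37 were tested. Of these 3 rose, 4 fell and 30 did not pass, with a median log2 fold change of 0.04. Of all tested genes 10.4% were called in either direction. TMEM38A, a potassium-permeable channel of the endoplasmic reticulum that balances calcium release, averaged 17.7 ± 1.05 CPM with SAM and 10.7 ± 0.520 CPM in Control (SD, n = 3 each), with a log2 fold change of 0.73 (edgeR adjusted p = 0.00746). RYR2, the calcium release channel of heart muscle, averaged 5.23 ± 1.69 CPM with SAM and 2.50 ± 0.199 CPM in Control (SD, n = 3 each), with a log2 fold change of 1.08 (edgeR adjusted p = 0.0282). The third gene that rose was MCOLN2 of the mucolipin family, at a log2 fold change of 0.49 (edgeR adjusted p = 0.0485). CLIC4, named as an intracellular chloride channel, averaged 187 ± 36.4 CPM with SAM and 310 ± 9.18 CPM in Control (SD, n = 3 each), with a log2 fold change of −0.73 (edgeR adjusted p = 0.0129). P2RX7, the ATP-gated cation channel, averaged 3.81 ± 0.729 CPM with SAM and 7.21 ± 1.26 CPM in Control (SD, n = 3 each), with a log2 fold change of −0.91 (edgeR adjusted p = 0.0221). The other genes that fell were PKD2, the cation channel polycystin of the primary cilium, at a log2 fold change of −0.53 (edgeR adjusted p = 0.0290), and BEST1, a calcium-activated chloride channel, at −1.04 (edgeR adjusted p = 0.0399). RYR2, CLIC4, PKD2, BEST1 and MCOLN2 lost their calls without SAM 1 or any single Control library, P2RX7 without SAM 1, Control 1 or Control 3, and TMEM38A without Control 2 or Control 3, at edgeR adjusted p of 0.0946 to 0.132 for RYR2, 0.0579 to 0.0842 for CLIC4, 0.0806 to 0.125 for P2RX7 and 0.0548 to 0.0618 for TMEM38A. Without SAM 2 and Control 1 together RYR2 (edgeR adjusted p = 0.0769), PKD2 (0.0987), BEST1 (0.0846) and MCOLN2 (0.0733) were not called either.

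For comparison with the 2 lists that follow, 10.4% of all tested genes were called in either direction. Of 21 tested ion pumps and exchangers 2 rose and 19 did not pass. ATP1B3, a beta subunit of the sodium-potassium pump, which moves against its gradient the sodium that leak channels admit, was one of those that rose. It averaged 84.1 ± 8.66 CPM with SAM and 63.1 ± 1.75 CPM in Control (SD, n = 3 each; log2 fold change 0.42, edgeR adjusted p = 0.0322). Of 14 tested channel partners and regulators 2 fell and 12 did not pass. They were WNK4, at 36.1 ± 6.82 CPM with SAM and 52.2 ± 2.01 CPM in Control (SD, n = 3 each; log2 fold change −0.54, edgeR adjusted p = 0.0317), and STK39, at a log2 fold change of −0.31 (edgeR adjusted p = 0.0415), which are successive kinases of the pathway that controls chloride cotransporters. The calls of ATP1B3, WNK4 and STK39 were lost without SAM 1 or any single Control library, at edgeR adjusted p of 0.107 to 0.164 for ATP1B3, 0.0903 to 0.1353 for WNK4 and 0.117 to 0.187 for STK39. Without SAM 2 and Control 1 together WNK4 (edgeR adjusted p = 0.108) and STK39 (0.141) were not called either.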

How the data were processed

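RNA of PC-3 cells was sequenced from 3 SAM and 3 Control libraries, made per the labels with a Peq-Gold kit and TruSeq reagents and read on a HiSeq2000. The study's text describes another dose, kit and sequencer for its RNA sequencing; the labels were followed. The authors deposited raw counts per Ensembl gene, which were used, and a table of normalised values, which was not. As tools, with no role given, the submitters' notes list STAR 2.4 and HTSeq 0.6.1, beside CASAVA 1.8.2, SAMtools 0.1.19, FastQC 0.10.0 and DESeq2 1.8, and as builds hg19 and mm10. The deposited coordinates of all 185 ion channel genes overlap the same genes in GENCODE release 44 on GRCh38.

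The counts were tested in edgeR 4.0.16 (glmQLFit and glmQLFTest, R 4.3.3) after filterByExpr and TMM scaling, with treatment alone in the design, two-sided, and Benjamini-Hochberg adjustment over 15312 genes. SE values were taken as |log2 fold change| over the root of F. The biological coefficient of variation was 13.5%. Totals of 9379258 to 28995160 counts make low genes least precise in Control 1 and SAM 2. The fit was tested on simulated data. Alternatives were 13 planned fits, DESeq2 1.42.0 and limma 3.58.1 among them, and 1 chosen after seeing the data, which removed the trends of length and GC content per library.

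NALCN, the other ion channel genes, the related lists and the markers were chosen with earlier results of these data known. By rule the text names NALCN, every called ion channel gene, changes of at least 1 on the log2 scale with an unadjusted p under 0.05, the 6 highest genes per kilobase, and up to 6 called genes per related list. Further genes were named after their values were seen, to complete a family or a count. Some genes that these rules select, or that the marker lists hold, are counted but not reported here.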

Additional observations from a re-analysis of the deposited data

How the results depend on the processing

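The direction of the 13 called ion channel genes was kept under all 14 alternatives, and NALCN kept its call as well (adjusted p 1.9e-13 to 0.015). The groups of all 13 genes do not overlap, so the alternatives left little room for a change of direction, and its absence is no support. The counts moved more. Higher ion channel genes, 4 in edgeR, numbered 1 with library totals only, 2 in DESeq2, 2 in limma voom, 1 without SAM 2 and Control 1 together, 9 with length and GC trends removed, and 0 to 5 when 1 library was left out. Lower ones, 9 in edgeR, numbered 14 without the filter on low counts and 1 to 13 when 1 library was left out. Over all genes, 795 higher and 803 lower in edgeR, the numbers were 1402 and 1341 without the filter, 446 and 508 without SAM 2 and Control 1 together, 1609 and 1272 with the trends removed, 608 and 961 with library totals only, and 61 to 1661 higher and 78 to 1572 lower when 1 library was left out. The median log2 fold change of the ion channel genes, −0.05, was −0.12 to 0.018 when 1 library was left out and 0.034 with the trends removed. The cause of these shifts was not tested.

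No pairing by replicate number was seen: the deviations of libraries with the same number correlated at −0.17, −0.40 and 0.13. The highest correlation, 0.45, was between SAM 2 and Control 1. Deviations from means of 3 libraries cannot exclude a paired design. With the replicate block, 1 ion channel gene was higher and 9 were lower, 440 genes were higher and 588 lower in all, and NALCN had a log2 fold change of −1.54. The calls of KCNIP3, TRPM2 and CACNA2D2 were among those lost there, and SCN8A was called there (edgeR adjusted p = 0.0452).

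Depth limits the 115 ion channel genes that were not tested, each with fewer than 100 counts over all libraries.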
